A study of Mus musculus with 6 samples.

Results

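Bone marrow-derived macrophages (BMDMs) are grown from bone marrow, which also holds B cells, their precursors and antibody-secreting plasma cells. The 9 genes described here encode antibody chains or mark the B lineage: Igkc, Ighm, Jchain, Cd79a, Cd79b, Ms4a1, Pax5, Ebf1 and Vpreb3. They are 9 of the 55254 gene symbols of the count table, and each gene is represented by whichever of its transcripts was counted most, on average, over all 6 libraries. The set was chosen from measured values of the same contrast that is described here: Igkc had been among the genes with the smallest p-values for a decrease in the M-Δx3,4 libraries, and the other 8 were added to judge it. The differences of the members between the groups are therefore given as a description, with no p-value, and how many were past a threshold is given only as a count.

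The series asked which mature mRNAs depend on AUF1, the RNA-binding protein encoded by hnRNPD, in macrophages activated through TLR4. Control BMDMs were hnRNPDfl/fl, with loxP sites around exons 3 and 4. M-Δx3,4 BMDMs were LysCre+ hnRNPDfl/fl and express Cre from the lysozyme M promoter, which is active in myeloid cells. All cells came from C57BL/6J mice, were differentiated for 10 days in medium with L929-conditioned supernatant and received 100 ng/ml LPS for 4 hours. There were 3 libraries of each genotype. Nothing in the labels says that the samples of a group came from separate mice, so the spread between libraries may be partly technical.

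Each library held 5852374 to 9008878 counts over all transcripts. Libraries of 1 genotype were not always the most alike. Over 4723 genes with a mean above 50 normalized counts, control replicates 1 and 3 correlated least (Pearson r = 0.764 of log2 values, across genes), while control replicate 1 and M-Δx3,4 replicate 3 correlated most (r = 0.971). The Hnrnpd transcript of p37 (ENSMUST00000072750) had normalized counts of 177.8, 104.2 and 69.6 (control) and of 52.8, 12.6 and 16.0 (M-Δx3,4). It is not the transcript that represents its gene among the genes tested. Its counted 3′ end lies outside the deleted exons and so does not check the deletion. Of 11 macrophage genes all 11 passed the filter on low counts, and their summed level was 8390.5 to 9784.8 (control) and 7645.9 to 8884.7 (M-Δx3,4) normalized counts, so the labelled cell type had its markers.

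Antibody is made of heavy and light chains. A B cell carries IgM in its membrane, held by the signalling pair CD79A and CD79B, whereas a plasma cell secretes antibody and makes very large amounts of a few immunoglobulin mRNAs. Both forms of the IgM heavy chain come from 1 gene, Ighm, by the choice of its 3′ end: an upstream poly(A) site gives the secreted chain, and a downstream site, reached by splicing to the membrane exons, gives the membrane chain. A method that counts 3′ ends can tell these forms apart. It cannot tell fewer cells of a type from less RNA per cell.

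The ends at which the 4 most counted genes were read are shown for their poly(A) signals, since the values below are counts at these ends. The sequences are from GENCODE vM21 transcripts on GRCm38, written as the RNA strand with T, and the capitals mark the signal.
Igkc: aaatattcAATAAAgtgagtctttgcactt
Ighm secreted end: aaattagaAATAAAaaaaatccattcaaac
Ighm membrane end: cacatggaAATAAAtactttatcttgtgaa
Jchain: atatgtaaATTAAAtataagttattattgg
Cd79b: tcctgtggAATAAAtaatgtgcctgacacc
They lie at chr6:70726935-70726964 (plus strand), chr12:113420745-113420774 (minus), chr12:113418562-113418591 (minus), chr5:88520516-88520545 (minus) and chr11:106311344-106311373 (minus). Each is in the last exon of its transcript, within the 3′ UTR. Igkc has 1 exon, so its constant region and 3′ UTR share it. The signal begins 24 to 26 bases before the annotated end in all 5. AATAAA or ATTAAA was found in the last 50 bases of 81.3% of 8281 tested genes. AUF1 is known for binding AU-rich elements, whose core pentamer is ATTTA. On the RNA strand the pentamer was absent from the counted 3′ UTRs of Igkc, of both ends of Ighm, of Cd79b and of Vpreb3, and was present in those of Jchain (2), Cd79a (1), Ms4a1 (2), Pax5 (6) and Ebf1 (10). It was found in 71.1% of the same 8281 genes, whose 3′ UTRs differ in length. The longer TTATTTATT was in none of the members' 3′ UTRs and in 8.03% of those genes. The first pentamer of Jchain lies in the window below, with the pentamer in capitals (chr5:88520830-88520859, minus strand).
Jchain ATTTA: tgttttggaaatATTTActaatatttatga

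Among the members the kappa light chain was the most counted, although Jchain, counted far less, had a more negative log2 fold change. Igkc (ENSMUST00000103410, counted over chr6:70726758-70726966) encodes the constant region of the kappa chain, which most mouse antibodies use. The control libraries held 192, 224 and 217 of its reads and the M-Δx3,4 libraries 85, 61 and 125. Normalized for library size, these were 223.2, 228.9 and 251.8 against 83.1, 59.2 and 95.5. The 3 control libraries lay close together and every M-Δx3,4 library was below all of them. The means were 234.6 ± 15.1 and 79.3 ± 18.4 normalized counts (SD, n = 3). The M-Δx3,4 mean was 33.8% of the control mean, and the log2 fold change was -1.56 (standard error 0.34).

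Igkc was chosen on these same libraries, so leaving 1 of them out describes the difference and does not check it. With each library left out in turn the log2 fold change of Igkc ran from -1.72 to -1.39, and without control replicate 1 or 3 it was -1.59 and -1.50. In the annotation the counted stretch also lies within an intron of Gm30211, a gene on the same strand, and no other symbol of the table had a counted region over it.

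**Figure D1:**
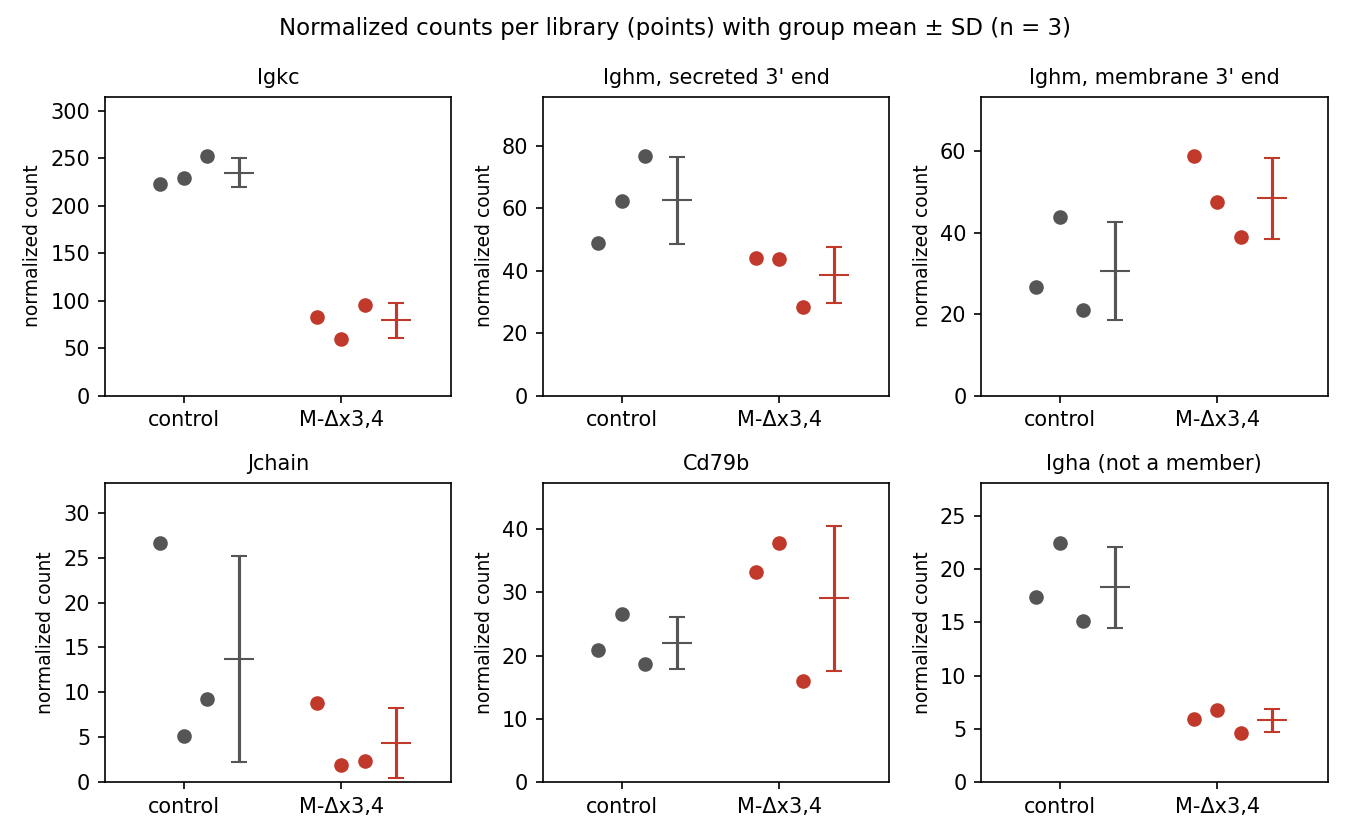
Normalized counts (y axis, from 0, a scale of its own in each panel) of 4 members, with Ighm split by its ends, and of Igha, in 3 control (grey) and 3 M-Δx3,4 (red) libraries. Points are libraries and bars are the mean ± SD. Igkc, the secreted end of Ighm and Igha lie lower in every M-Δx3,4 library, while the membrane end of Ighm, Jchain and Cd79b overlap.

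The IgM heavy chain differed between the groups in which end was counted more than in how much was counted. The secreted end of Ighm (ENSMUST00000103426, chr12:113420492-113420866), its most counted transcript, had 48.8, 62.3 and 76.6 (control) and 44.0, 43.7 and 28.3 (M-Δx3,4) normalized counts. The M-Δx3,4 libraries were lower throughout, by a narrow gap, and the log2 fold change was -0.70 (standard error 0.40). The membrane end (ENSMUST00000177715, chr12:113418309-113418825), 2183 bases downstream, had 26.7, 43.9 and 20.9 against 58.7, 47.6 and 39.0 normalized counts. Here the groups overlapped, since control replicate 2 was above M-Δx3,4 replicate 3, and the log2 fold change was 0.66 (standard error 0.42). The sum of both ends was 93.1 ± 15.8 in control and 87.1 ± 18.1 in M-Δx3,4 libraries (SD, n = 3), a difference smaller than the spread.

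The share of Ighm counts at the membrane end does not depend on the scaling of the libraries. It was 35.4% (95% exact binomial interval 23.9 to 48.2), 41.3% (31.8 to 51.4) and 21.4% (13.2 to 31.7) in the control libraries. In the M-Δx3,4 libraries it was 57.1% (47.1 to 66.8), 52.1% (41.6 to 62.5) and 58.0% (47.0 to 68.4). As counted, the membrane end held the minority of the Ighm counts in each control library and the majority in each M-Δx3,4 library. The intervals of control replicate 2 and of all 3 M-Δx3,4 libraries include an even split. The means were 32.7 ± 10.2% and 55.7 ± 3.16% (SD, n = 3), and the intervals of control replicates 1 and 2 overlap those of all 3 M-Δx3,4 libraries. The intervals rest on 65 to 105 counts a library and cover counting error only, since reads were not collapsed by molecular identifiers. This share was examined after the values of both ends had been seen.

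Light and heavy chain did not keep 1 ratio. Igkc had 2.95, 2.15 and 2.58 counts for each Ighm count, with both ends summed, in control BMDMs. In M-Δx3,4 BMDMs it had 0.810, 0.649 and 1.42. Every M-Δx3,4 library was lower, and the means were 2.56 ± 0.400 and 0.960 ± 0.407 (SD, n = 3). The ratio uses the Igkc counts on which the set was chosen, while summed Ighm differed little, so it is not a separate result.

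**Figure D2:**
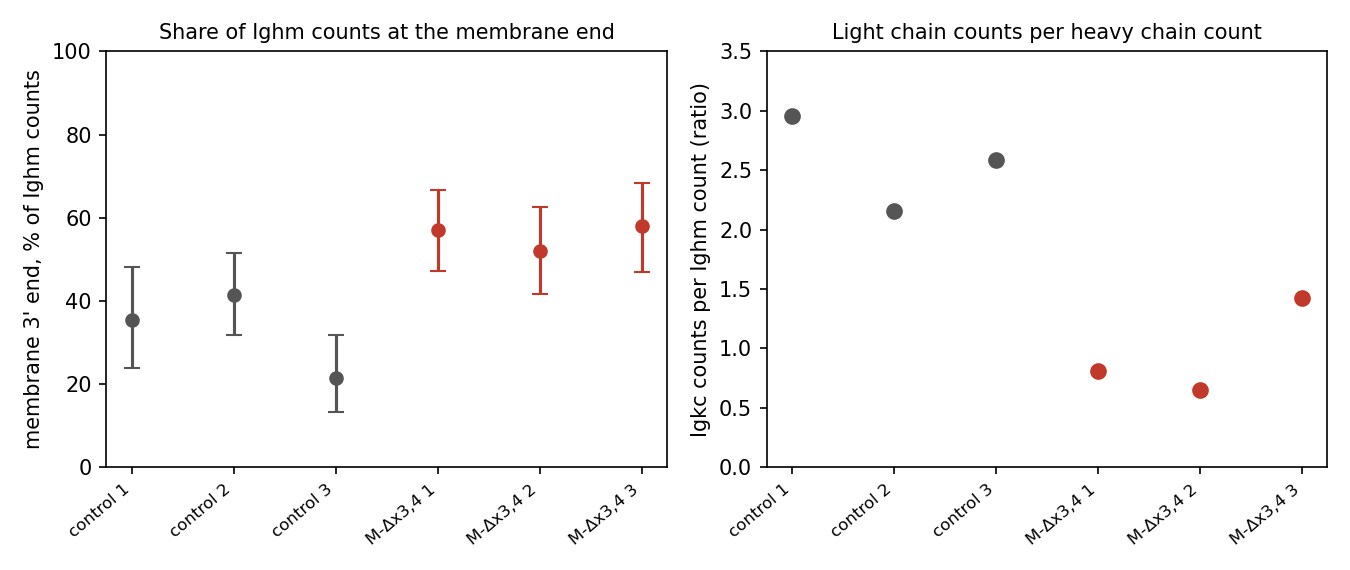
Left, the share of Ighm counts at the membrane 3′ end (y axis, %) in each library, with 95% exact binomial intervals. Right, Igkc counts per Ighm count (y axis, ratio) in each library. The membrane share is 21.4% to 41.3% in control (grey) and 52.1% to 58.0% in M-Δx3,4 libraries (red), and the ratio is 2.15 to 2.95 against 0.649 to 1.42.

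Jchain (ENSMUST00000087033, chr5:88520263-88521312) encodes the joining chain, which links IgM and IgA units into polymers for secretion. Its counts were 23, 5 and 8 in control and 9, 2 and 3 in M-Δx3,4 libraries, or 26.7, 5.1 and 9.3 against 8.8, 1.9 and 2.3 normalized counts. The groups overlapped, and 1 library of each, replicate 1, was well above the other two. The log2 fold change was -1.64 (standard error 0.81). It was -0.72 without control replicate 1 and -2.61 without M-Δx3,4 replicate 1, so its size depends on those libraries.

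The signalling pair of the B cell receptor was counted at low levels. Cd79b (ENSMUST00000044228, chr11:106311092-106311806) had 20.9, 26.6 and 18.6 (control) and 33.3, 37.9 and 16.0 (M-Δx3,4) normalized counts. The highest and the lowest value were both in the M-Δx3,4 group. The log2 fold change was 0.39 (standard error 0.46), opposite in sign to that of Igkc. Its partner Cd79a had 4, 1 and 4 counts in control and 4, 1 and 0 in M-Δx3,4 libraries, which did not pass the filter on low counts.

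The remaining members were at or near 0 in every library. Ms4a1, which encodes the B cell surface protein CD20, had 2, 3 and 1 counts in control and 0 in each M-Δx3,4 library. A count of 0 allows up to 3 counts, no library of either group had more, and no fold is given. Pax5 and Ebf1, transcription factors that commit cells to the B lineage, had at most 1 count in any library (4 counts in all for Pax5 and 1 for Ebf1). Vpreb3, whose product associates with immunoglobulin chains in developing B cells, had 5 counts in control replicate 2 and 0 elsewhere. Among the members the B lineage label was thus carried by immunoglobulin and Cd79b counts. Cd79a, Ms4a1, Pax5, Ebf1 and Vpreb3 were not detectable at this depth or close to it, which does not hold for every other B cell gene.

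**Figure D3:**
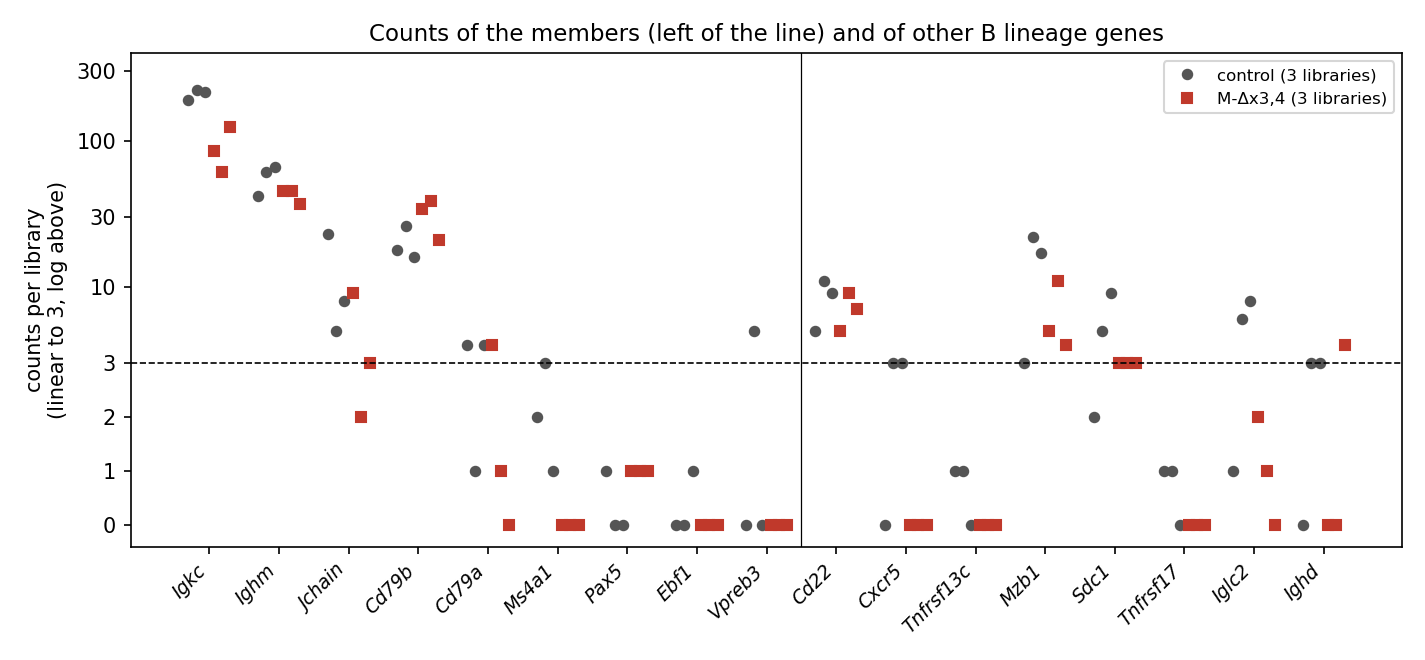
Counts per library (y axis, linear up to 3 and logarithmic above) of the 9 members, left of the vertical line, and of 8 other immunoglobulin, B cell and plasma cell genes, in control (grey circles) and M-Δx3,4 libraries (red squares). The dashed line marks 3 counts. Cd79a, Ms4a1, Pax5, Ebf1 and Vpreb3 lie at 5 counts or fewer in every library, against 61 to 224 counts for Igkc.

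Of the 9 members, 5 passed the filter on low counts: Igkc, Ighm, Jchain, Cd79b and Vpreb3. The threshold asked for a p below 0.05, before adjustment, from the quasi-likelihood test of edgeR together with a log2 fold change of 1 or more in either direction. Igkc was past it and lower, and no member was past it and higher. Among all 11873 genes tested, 1.96% were past the threshold and lower in M-Δx3,4 BMDMs and 1.10% higher. For Igkc and the secreted end of Ighm all M-Δx3,4 values lay under all control values, as in 4.25% of the genes tested, and no tested member had all M-Δx3,4 values above all control values, as 4.19% of the genes did. Since the members were chosen on this contrast, nothing is read from their count. After Benjamini-Hochberg adjustment the smallest p that edgeR gave any transcript was 0.824.

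The table held 391 other immunoglobulin segments, of which 375 had no count. For none of the 380 variable, diversity and joining segments did the counted region touch the annotated segment: it lay in the germline sequence after it, which rearranged antibody mRNA lacks. Those zeros therefore say little about antibody mRNA. Of the 4 segments that could be tested, Igha was past the threshold. Iglc2, Iglc3 and Ighv3-6 passed the filter on low counts only through control libraries. Igha (ENSMUST00000178282, chr12:113258453-113258767), the IgA heavy chain, had 15, 22 and 13 counts in control and 6, 7 and 6 in M-Δx3,4 libraries, or 18.3 ± 3.8 and 5.8 ± 1.1 normalized counts (SD, n = 3). Its groups did not overlap and its log2 fold change was -1.66 (standard error 0.56). All of these counts were at the upstream, secreted end of Igha, and the membrane end (ENSMUST00000194738) had 0 counts in every library. The threshold was lost without control replicate 2 (log2 fold change -1.49). Of the lambda light chains, Iglc2 had 1, 6 and 8 counts against 2, 1 and 0 and did not pass. Ighd, which with Ighm marks mature B cells, had at most 4 counts in any library, and the IgG heavy chains Ighg2b, Ighg2c and Ighg3 at most 3.

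Set against Igkc in the same library, Igha made up 7.81%, 9.82% and 5.99% of the Igkc counts in control and 7.06%, 11.5% and 4.80% in M-Δx3,4 libraries. These ranges overlap, unlike those of Ighm against Igkc. Jchain made up 11.98%, 2.23% and 3.69% of the Igkc counts in control and 10.6%, 3.28% and 2.40% in M-Δx3,4 libraries, again overlapping. The ratios of Jchain spread widely within each group.

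Plasma cell genes outside the immunoglobulin loci were mixed. None of the 12 was past the threshold. Of the 9 tested, 6 had a negative and 3 a positive log2 fold change, with a median of -0.19 against -0.01 over all genes tested. Sdc1, among the negative, passed the filter on low counts only through control libraries, so no direction is read from this. Mzb1, an endoplasmic reticulum protein of antibody-making cells, had 3, 22 and 17 counts in control and 5, 11 and 4 in M-Δx3,4 libraries (log2 fold change -1.30, standard error 0.73). Of the 3 most counted, Slamf7 and Xbp1, a driver of the secretory programme, had log2 fold changes of -0.19 and -0.54, and Ell2, an elongation factor that favours the secreted immunoglobulin end, of 0.85. These 3 are also expressed by activated macrophages. The plasma cell receptor gene Tnfrsf17 had at most 1 count in any library. The summed level of the list was 435.3 ± 36.6 and 421.5 ± 34.1 normalized counts (SD, n = 3).

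Among the other B cell genes none was past the threshold. Of 20 genes 12 were tested. Their log2 fold changes were split evenly, 6 negative and 6 positive, with a median of -0.01, as over all genes. Blnk, among the negative, passed the filter on low counts only through control replicate 3. The 3 most counted were Cd72, an inhibitory receptor that macrophages also carry (log2 fold change -0.20), the tetraspanin Cd37 (0.39) and the Fc receptor-like Fcrl5 (0.31), while 16 of the 20 had 30 counts or fewer in every library. Fcrl1, the next most counted, had 27 to 40 counts a library (log2 fold change -0.50), and Bank1 had 6 to 25 (0.34). Blk, a B cell kinase, and Cr2, a complement receptor, had no count in any library. The summed level of the 20 genes was 1205.3 ± 388.5 (control) and 1096.3 ± 190.8 (M-Δx3,4) normalized counts (SD, n = 3). The difference of the means was smaller than the SD within either group. A two-sided exact permutation test gave p = 0.7, which says little, since 3 libraries against 3 cannot reach a p below 0.1. Cd72 made up most of the sum, and without it the levels were 226.5 ± 30.8 and 241.4 ± 31.7.

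Precursor B cell genes gave almost no counts. Of 12, 6 had none in any library, among them the recombinase genes Rag1 and Rag2 and the surrogate light chain genes Vpreb1 and Igll1. Bach2 was the 1 tested (log2 fold change 0.24, standard error 1.02), and Sox4 and Dntt, the next most counted, had at most 4 counts in any library. None was past the threshold. The kinases and adaptors that signal below the B cell receptor, most of them shared with macrophages, were all counted. None of the 15 was past the threshold, with a median log2 fold change of -0.01. The 3 most counted were Lyn (0.35), Prkcb (0.46) and Ptpn6 (-0.39).

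**Figure D4:**
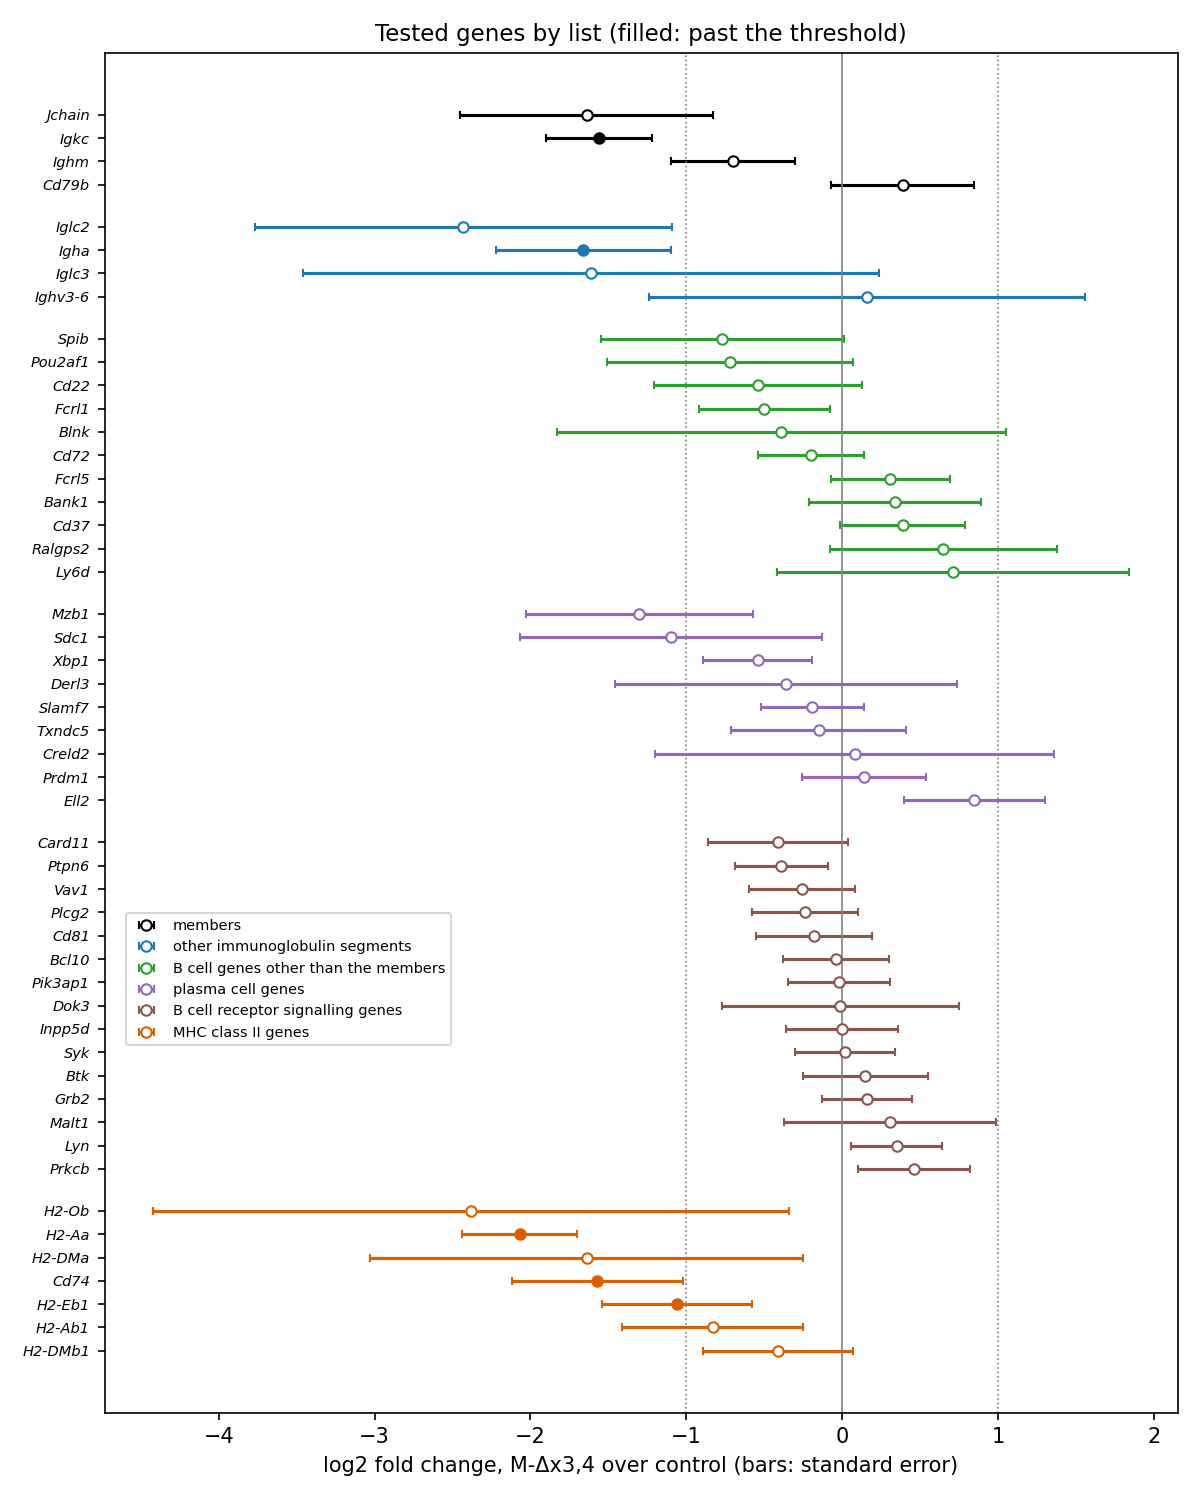
Log2 fold change (x axis, M-Δx3,4 over control) with its standard error for the tested genes of 6 lists, leaving out Vpreb3, which had no count in 1 group, and 1 other B cell gene. Filled points are past the threshold: Igkc, Igha, H2-Aa, Cd74 and H2-Eb1, all lower. B cell receptor signalling genes lie between -1 and 1.

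MHC class II genes are shared by B cells, dendritic cells and activated macrophages. Of 10 such genes 7 were tested, and 3 of these 7 were past the threshold and lower, against 1.96% of all genes tested. Of the 7 that were tested the median log2 fold change was -1.57, against -0.01 over all genes, but H2-Ob and H2-DMa passed the filter on low counts only through control replicate 2, so no common direction is read from the list. H2-Aa, the alpha chain of I-A, had normalized counts of 143.0, 239.1 and 243.6 in control against 56.7, 45.6 and 46.6 in M-Δx3,4 libraries (log2 fold change -2.07, standard error 0.37). It was past the threshold in all 13 alternative settings. Cd74, the invariant chain, had a log2 fold change of -1.57 and was past it in 10 of the 13, but not without control replicate 2 or without M-Δx3,4 replicate 3. H2-Eb1, with a log2 fold change of -1.06, was past it in 5 of the 13, and not without control replicate 2 or 3 or any 1 of the M-Δx3,4 libraries. H2-DMb1, which loads peptides and was the third most counted, had -0.41. The summed level of the list was 208.0 to 423.0 (control) and 94.0 to 129.1 (M-Δx3,4) normalized counts. The part of class II-bearing cells in the level of Igkc was not tested.

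Markers of other cells were examined beside the same contrast. Over 9 lists with 95 genes, the class II list included, 49 were tested, 5 were past the threshold and lower, and none was past it and higher. Among all 11873 genes tested, 1.96% were past it and lower and 1.10% higher. The 5 include H2-Aa, Cd74 and H2-Eb1 of the class II list, and nothing is read from their count. Of 12 plasmacytoid dendritic cell genes, Ly6c2 was past the threshold (12, 16 and 24 counts against 12, 9 and 3) but in only 5 of the 13 alternative settings, and not without replicate 2 or 3 of either group, while Siglech, which defines these cells, had at most 5 counts in any library. The most counted of them, Bst2, Irf8 and Ly6a, had log2 fold changes of -0.17, -0.35 and -0.94, and the list summed to 3292.7 to 4648.8 (control) and 2733.0 to 4409.4 (M-Δx3,4) normalized counts. Of 10 conventional dendritic cell genes none was past it, though Batf3 (log2 fold change -1.02) was in 3 of the 13 alternative settings, 1 of them without control replicate 1. Clec9a and Cd209a had no count, Itgax had a log2 fold change of -0.06, Dpp4 had 0, 0 and 12 counts in control and 0, 2 and 1 in M-Δx3,4 libraries, and the sums were 23.2 to 69.6 against 23.5 to 32.0.

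Lymphoid, granulocyte and erythroid markers had summed levels that overlapped between the groups. Of 14 T and NK cell genes 8 had no count, Cd3e and Trac among them. Cd3d, Ms4a4b and Lck, the most counted, had log2 fold changes of -0.29, 0.18 and -1.31. Lck (standard error 1.20) passed the filter on low counts only through control replicate 1. The sums were 11.6 to 55.8 in control and 18.6 to 30.1 in M-Δx3,4 libraries. Of 13 neutrophil genes, S100a9, Ngp and S100a8 were the most counted (0.17, 0.22 and 0.29), Elane and Ctsg had no count, and the sums were 433.2 to 755.5 against 528.1 to 774.9. Of 8 erythroid genes the beta globins Hbb-bs and Hbb-bt, which are near-identical copies, had log2 fold changes of -1.40 and -0.33, the first of which was 1.02 without control replicate 3, Car2 had at most 4 counts, Klf1 had none, and the sums were 3.5 to 41.8 against 1.0 to 13.8. None of these 3 lists had a gene past the threshold.

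Of 8 mast cell and basophil genes 6 had no count, Cpa3 and Mcpt8 among them, and the sums were 1.2 to 3.1 (control) and 0.0 to 0.8 (M-Δx3,4) normalized counts. Kit and Prss34 had at most 3 counts in any library. Of 9 stromal genes Col3a1, a collagen, was past the threshold with 12, 6 and 0 counts in control and 0 in each M-Δx3,4 library. It passed the filter on low counts through the controls alone and was not past the threshold without control replicate 1. Sparc, Cxcl12 and Col1a2, the most counted, had log2 fold changes of -0.95, -0.29 and -0.16, and the sums were 65.7 ± 17.9 against 38.8 ± 44.4 normalized counts (SD, n = 3). Most of the M-Δx3,4 sum was in replicate 1, and the mean of the other two was 13.3. Without that library Dcn and Sparc were past the threshold and lower, but they then passed the filter on low counts only through control libraries. Of the macrophage genes none was past the threshold, and the 3 most counted were C1qa (-0.50), Itgam (0.41) and Lyz2 (-0.91), whose M-Δx3,4 libraries were all lower. Lyz2 is the gene into which Cre is inserted in LysCre mice. The part of these cell types in the level of Igkc was not tested.

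Likeness to Igkc was ranked among genes counted highly enough, which leaves out Igha, Jchain and Mzb1. Over the 6 libraries and 6783 genes with a mean of at least 20 normalized counts, Pearson's r with Igkc on log2(normalized count + 1) was highest for Ndufab1-ps (0.972), Hpse (0.968), Ergic3 (0.962), Scarf1 (0.960) and Arhgef10l (0.958). Ndufab1-ps is a pseudogene, and whether its reads could be told apart from those of its parent gene was not checked. For H2-Aa r was 0.952, for the secreted end of Ighm 0.695 and for Cd79b -0.543. Under the level asked for, r was 0.881 for Igha, 0.641 for Jchain and 0.391 for Mzb1. These values describe 6 libraries in 2 groups, share their library scaling and carry no test.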

How the data were processed

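RNA of 3 control and 3 M-Δx3,4 BMDM samples was sequenced from 3′ ends (QuantSeq). Per the study's methods and the submitters' processing notes, reads were mapped to mm10 with TopHat2 2.1.1 and Bowtie2 and counted on 3′ UTR regions of Ensembl transcripts. Regions mostly run 249 bases past the annotated end. Whether counting used strand is not given in the sources used here. The deposited counts are whole, not normalized and not pooled. A second deposited table holds 24 columns of normalized values per sample, group statistics and the authors' p-values and fold changes, and was not used.

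Counts were summed over the regions of each transcript (177303 regions, 142567 transcripts). Of 52013 transcripts with a count, the 32475 above the median normalized count (4.891) in at least 1 library were tested with edgeR 4.0.16 (quasi-likelihood, DESeq2's median-of-ratios factors as computed in edgeR, Benjamini-Hochberg adjustment over all), in R 4.3.3, without a block. The threshold was p below 0.05, before adjustment, with a log2 fold change of 1 or more in either direction. Each gene was represented by its most counted transcript, while for Hnrnpd the values of the p37 transcript were given. The fit was tested on simulated counts. A level is a normalized count, not divided by length, and levels of different genes are not compared as amounts of RNA.

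The members and the gene lists were chosen with earlier results of these data known. Genes named were the 9 members, Hnrnpd, the genes of each list past the threshold, the 3 of each list with the highest mean normalized count, and the 5 genes most like Igkc. Genes named beyond this, such as Mzb1 and lineage-defining genes at or near 0, were chosen after their values were seen. Some genes of the lists enter the counts and sums but are not reported here by name. Alternatives were TMM factors, library totals, DESeq2 1.42.0, no filter, at least 10 counts in every library, 1 transcript per gene, a replicate block and each library left out. Sequences and annotation were read from GENCODE vM21 with Python 3.11.15.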

Additional observations from a re-analysis of the deposited data

How the results depend on the processing

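The log2 fold change of Igkc was negative and past the threshold in all 13 alternatives, from -1.72 to -1.39. Igkc was chosen for a small p-value in these same libraries, so the alternatives are no independent check of it. That of Ighm's secreted end stayed between -0.85 and -0.51, and its other transcript, added after seeing the data, gave 0.66. The members past the threshold numbered 1, from 1 to 2 with each library left out, 2 with the replicate block (Igkc and Jchain) and 3 with no filter on low counts (Igkc, Jchain and Ms4a1). Genes past the threshold numbered 364, with 226 by DESeq2, 560 with no filter, 91 with at least 10 counts in every library, and 222 (without control replicate 3) to 1267 (without control replicate 1) with a library left out. With no filter 1 other B cell gene passed, Cxcr5. With the replicate block 1 plasma cell gene passed, Ell2, and with a library left out 0 to 2 passed, the 2 without control replicate 1 being Mzb1 and Ell2. Other immunoglobulin segments ranged from 0, without control replicate 2, to 1, and none had 10 counts in every library. Genes of the other cell types' lists numbered 5, with 3 by library totals, 3 by DESeq2, 3 with at least 10 counts, 3 with the replicate block and 2 to 8 with a library left out (8 without replicate 1 of M-Δx3,4, 2 without replicate 2 of control or replicate 3 of M-Δx3,4). The log2 ratio of the summed other B cell genes was -0.14. It was 0.07 without control replicate 3 and 0.09 without Cd72, an alternative added after seeing the data, and from -0.37 to 0.07 with a library left out. The causes of these changes were not tested.

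The labels do not say whether the replicate numbers pair the samples. Deviations of same-numbered libraries from their group means correlated at -0.213, 0.537 and -0.309 over 4723 genes. These values differ in sign and do not settle it, so the replicate block is given only here.

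Depth limits Cd79a, Ms4a1, Pax5, Ebf1 and Vpreb3, which 3 counts or few more separate from 0, and leaves intervals of up to 24.3 percentage points on the share of Ighm counts at the membrane end.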
